A study of Homo sapiens with 4 samples.

Results

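The Cys-loop receptor subunits are the 45 genes, of 36601 in the count tables, whose symbols name a subunit of a GABA-A, glycine, nicotinic acetylcholine or serotonin type 3 receptor. They were taken by symbol, by a rule that holds no measured value but was chosen with earlier results of these data known. They comprise 6 GABA-A alpha, 3 beta, 7 gamma, delta and other and 3 rho subunits, 5 glycine receptor subunits, 11 neuronal and 5 muscle nicotinic subunits and 5 serotonin type 3 subunits. Each gene encodes a protein with an extracellular ligand-binding part closed by the disulfide loop that gives the family its name, and subunits assemble in the membrane as a ring of fixed size around an ion pore. GABA-A and glycine receptors pass chloride, whereas nicotinic and serotonin type 3 receptors pass cations and are the classical mediators of fast excitation in the enteric nervous system.

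Single-nucleus RNA sequencing was performed on stage 1 enteric ganglioids, which are free-floating neuronal clusters grown from the H9 human embryonic stem cell line through enteric neural crest. All samples shared ENC medium with GDNF and ascorbic acid, and 2 of the 4 also received the kinase inhibitor PP121 at 2 µM from day 15 to day 20, with 2 control samples left without it. Each sample was a pool of ganglioids of 1 cell line, numbered by the labels as differentiation replicate 1 or 2 in each group, and whether a control and a PP121 sample of the same number came from 1 differentiation is not given in the sources used here. In both groups replicate 1 carries the date of day 42 and replicate 2 that of day 38 in the deposited annotation, so that day and differentiation batch cannot be told apart, and the replicate number pairs a control with a PP121 sample.

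After removal of nuclei that the deposited annotation marks as filtered, 2912 to 4587 nuclei and 23348045 to 34123759 unique molecular identifiers (UMIs) per sample remained, with medians of 6289 to 7071 UMIs per nucleus, and pairs of libraries shared 0 to 8 cell barcodes. Enteric neurons numbered 976 to 2301 per sample, while mesenchymal nuclei numbered 40 and 33 in the replicate 1 samples against 408 and 422 in the replicate 2 samples. UMIs of a class were summed per sample and are given as CPM, the UMIs of a gene per 1000000 UMIs of that sum. In such sums, fewer nuclei that transcribe a gene and less RNA per nucleus cannot be told apart. The neuron label was carried by pan-neuronal genes such as ELAVL3, at 270.1 to 365 CPM. Of the enteric lineage genes, HAND2 had 3 UMIs in all neurons and the receptor tyrosine kinase RET had 83, so the class is called here by its deposited name.

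Every one of the 45 genes had at least 1 UMI and together they gathered 55827 of the 116292617 UMIs in annotated nuclei. There were 12 genes with at least 1000 UMIs, 18 with at least 100 but under 1000, and 15 with fewer than 100. A mean of at least 10 CPM in neurons, a progenitor class or mesenchymal nuclei was reached by 14 genes. Differences between the deposited classes are described without a test, because the classes were made from these same counts.

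**Figure D1:**
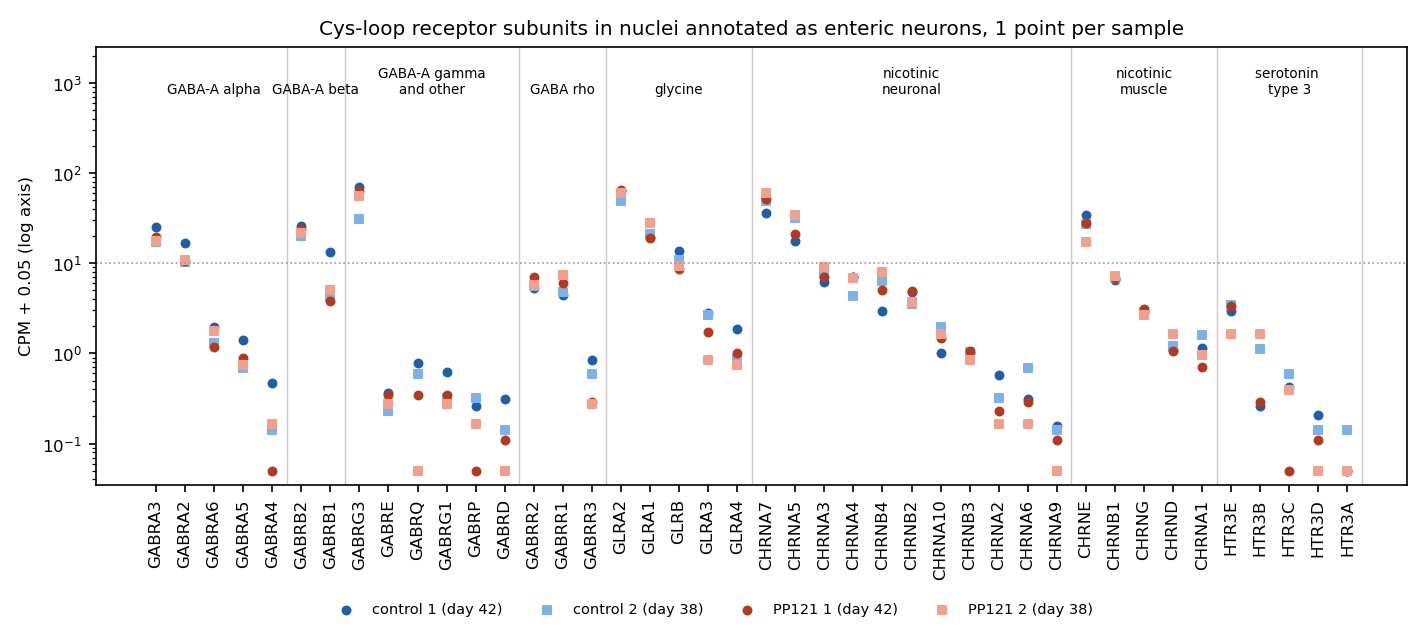
CPM in nuclei annotated as enteric neurons for 42 of the 45 subunit genes, on a log axis after addition of 0.05, with genes ordered within receptor family by total UMIs. Each point is 1 sample, circles are replicate 1 (day 42) and squares replicate 2 (day 38), and the dotted line marks 10 CPM. GLRA2 lies between 49.1 and 65.2 in the 4 samples, and the 5 serotonin type 3 genes lie below the dotted line in each.

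GABA-A receptors in most neurons combine alpha, beta and gamma subunits, with GABA bound between alpha and beta. Among beta subunits, GABRB2 was at 25.7, 19.8, 24.1 and 21.7 CPM in neurons of control replicates 1 and 2 and PP121 replicates 1 and 2, the order used throughout. Of its UMIs 88.2% lay in neurons, and its levels were 2.78, 0.502, 4.70 and 2.96 in progenitor 1 and 4.03, 1.11, 2.90 and 2.16 in progenitor 2, below the neurons of each sample. After every nucleus was thinned to 2000 UMIs, 4.32%, 2.81%, 3.76% and 3.59% of neurons held a GABRB2 UMI, against 0.166% to 0.687% of progenitor 1 nuclei. GABRB1 was at 13.1 in control replicate 1 but between 3.80 and 5.03 in the other 3 samples, so that 1 library set its mean. Among alpha subunits, GABRA3 was at 25.1, 17.2, 19.7 and 17.5 in neurons and had 80.6% of its UMIs there. It stood at 2.30 to 3.51 in progenitor 1 and at 3.15 to 7.72 in progenitor 2, so that neurons were 2.26- to 5.47-fold above progenitor 2 within samples, in 4 of 4. GABRA2 was at 16.6, 10.2, 10.6 and 10.7 in neurons and at 8.61, 16.3, 19.6 and 10.2 in progenitor 2, without a common order of the 2 classes. GABRA4, GABRA5 and GABRA6 were close to the floor, with 11, 70 and 102 UMIs over all nuclei.

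Gamma subunits place the receptor at synapses and form its benzodiazepine site with alpha. GABRG3 was at 69.8 and 30.6 CPM in control and 64.0 and 54.9 in PP121 neurons, against 3.51 to 7.55 in progenitor 1. Outside neurons, GABRG3 reached 416 CPM in the epithelial nuclei of control replicate 2, but this rested on 82 UMIs from 10 of 21 nuclei, and the other samples held 3, 6 and 28. The delta subunit GABRD had 11 UMIs and the pi subunit GABRP 15. Of the rho subunits, which form GABA receptors of their own, GABRR2 was at 5.33 to 6.95 and GABRR1 at 4.38 to 7.31 in neurons. GABRR2 exceeded a mean of 10 through mesenchymal nuclei alone, where its highest value, in control replicate 1, came from 40 nuclei.

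Over the whole family, alpha subunits summed to 45.9, 30.1, 32.6 and 31.2 CPM in neurons. At 4000 UMIs per nucleus, 9.004% to 13.7% of neurons held a UMI of an alpha subunit and 11.4% to 21.7% one of a gamma subunit. UMIs of an alpha, a beta and a gamma subunit were found together in 3.03%, 1.11%, 1.70% and 0.720% of neurons, with exact 95% Clopper-Pearson intervals of 2.31% to 3.89% in control replicate 1 and 0.265% to 1.56% in PP121 replicate 2. In the progenitor classes 0 or 1 nucleus per sample held all 3. These shares count nuclei with a UMI at this depth, not nuclei that make a complete receptor, and the intervals cover counting error only.

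**Figure D2:**
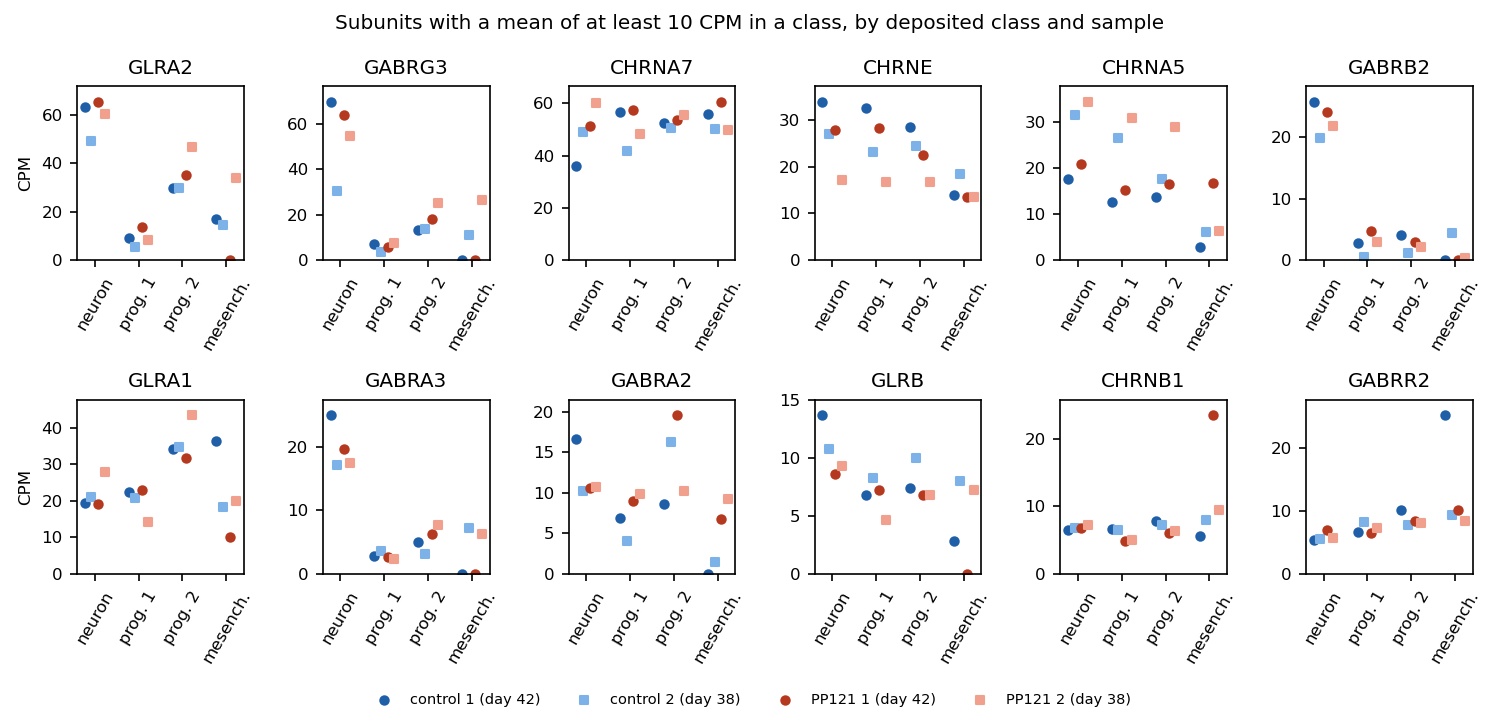
CPM of 12 of the 14 subunit genes with a mean of at least 10 in a class, by deposited class (enteric neuron, progenitor 1, progenitor 2, mesenchymal) and sample, with linear axes from 0 that differ between panels. GABRB2 and GABRA3 are highest in neurons in all 4 samples, CHRNA7 is at a like level in the 4 classes, and GLRA1 is higher in progenitor 2 than in neurons.

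Glycine receptors are built from an alpha subunit, which binds glycine, with or without the beta subunit that ties the receptor to its anchor gephyrin. GLRA2, the form that is typical of immature neurons, was at 63.1, 49.1, 65.2 and 60.3 CPM in neurons, 29.5, 29.8, 35.1 and 46.5 in progenitor 2 and 5.27 to 13.5 in progenitor 1. GLRA1, the adult spinal form, went the other way. It was at 19.3, 21.0, 19.1 and 28.0 in neurons and at 34.2, 34.8, 31.7 and 43.4 in progenitor 2, higher there in 4 of 4 samples. GLRB was at 13.7, 10.7, 8.61 and 9.25 in neurons, below GLRA2 in each sample. Thinned to 4000 UMIs, 20.4% to 23.6% of neurons held a UMI of a glycine alpha subunit and 2.52% to 4.93% one of GLRB. GLRA3 and GLRA4 had 181 and 101 UMIs in all. The gene body of GLRA2 shares 42289 bases with FANCB, and strand handling in the counting is not given in the sources used here, so reads of the 2 genes may not be fully separated.

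The 250 bases before the listed starts of GLRA1 and GLRA2 are shown because these alpha subunits differed in class and, as described below, in their relation to SLC17A6. They are RefSeq sequences on build GRCh38.p14, printed 5′ to 3′ in the direction of transcription. Capitals mark GC boxes (GGGCGG), E boxes (CAGCTG) and TATA boxes (TATAAA) on either strand. Over all 35116 promoter windows of this length, 42.6% hold the GC box, 13.98% the E box and 10.7% the TATA box. GLRA1 lies on the reverse strand of chromosome 5 with its window at chr5:151924852-151925101, which holds no match. GLRA2 has 2 listed starts on the forward strand of chromosome X, at chrX:14529048-14529297 with 1 GC box and chrX:14529286-14529535 with 1 GC box and 1 TATA box. Both GLRA2 windows lie inside its annotated gene span (chrX:14448779-14731812), so they precede internal starts and not the first base of that span.
GLRA1: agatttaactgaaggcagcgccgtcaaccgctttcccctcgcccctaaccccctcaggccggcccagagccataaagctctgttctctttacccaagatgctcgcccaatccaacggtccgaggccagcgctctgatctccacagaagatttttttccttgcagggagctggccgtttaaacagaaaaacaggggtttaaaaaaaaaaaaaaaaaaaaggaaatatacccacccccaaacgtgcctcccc
GLRA2, upstream start: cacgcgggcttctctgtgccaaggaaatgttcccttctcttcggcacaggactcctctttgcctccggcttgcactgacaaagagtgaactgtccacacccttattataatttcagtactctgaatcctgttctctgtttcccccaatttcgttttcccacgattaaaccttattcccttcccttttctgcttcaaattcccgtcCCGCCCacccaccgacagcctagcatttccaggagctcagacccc
GLRA2, downstream start: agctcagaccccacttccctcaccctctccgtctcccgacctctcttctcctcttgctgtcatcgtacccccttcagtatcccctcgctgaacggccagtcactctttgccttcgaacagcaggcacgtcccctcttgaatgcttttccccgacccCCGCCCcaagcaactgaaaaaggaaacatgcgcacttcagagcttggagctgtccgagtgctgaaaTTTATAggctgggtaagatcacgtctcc

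Neuronal nicotinic receptors of autonomic ganglia are classically made of the alpha 3 and beta 4 subunits, with alpha 5 as an accessory subunit, and alpha 7 forms receptors on its own. CHRNA7 was at 35.9, 49.2, 51.2 and 60.2 CPM in neurons. Its values elsewhere overlapped these, at 41.9 to 57.3 in progenitor 1, 50.5 to 55.6 in progenitor 2 and 49.8 to 60.6 in mesenchymal nuclei. CHRNA7 shares sequence with the fusion gene CHRFAM7A, which was at 1.64, 4.96, 4.46 and 10.7 in neurons, and reads of the shared exons may have been split between them. CHRNA5 was at 17.8, 31.7, 20.9 and 34.5 in neurons, higher in replicate 2 of each group, with 12.6 to 30.9 in progenitor 1 and 13.7 to 29.0 in progenitor 2. The ganglionic pair was lower. CHRNA3 was at 6.07, 7.49, 6.95 and 9.14 in neurons and CHRNB4 at 2.90, 6.31, 5.05 and 7.88. CHRNA4 and CHRNB2, which form the main nicotinic receptor of the brain, were at 4.33 to 7.07 and 3.52 to 4.93, and a UMI of any neuronal nicotinic gene was found in 24.8%, 30.2%, 27.4% and 36.6% of neurons at 4000 UMIs.

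CHRNA5, CHRNA3 and CHRNB4 lie side by side on chromosome 15, and the annotated spans of CHRNA5 and CHRNA3 share 2218 bases. The promoter windows of CHRNA3 (chr15:78620997-78621246) and CHRNB4 (chr15:78641211-78641460), both on the reverse strand, are given with the same marks because each of these genes passed a test in a comparison below, CHRNA3 with SLC17A6 and CHRNB4 with the day. That of CHRNA3 holds 4 GC boxes, of which those in an unbroken run overlap, and that of CHRNB4 3 GC boxes and 1 E box. The CHRNB4 window lies inside the annotated span of that gene (chr15:78624111-78661641), so it precedes an internal start.
CHRNA3: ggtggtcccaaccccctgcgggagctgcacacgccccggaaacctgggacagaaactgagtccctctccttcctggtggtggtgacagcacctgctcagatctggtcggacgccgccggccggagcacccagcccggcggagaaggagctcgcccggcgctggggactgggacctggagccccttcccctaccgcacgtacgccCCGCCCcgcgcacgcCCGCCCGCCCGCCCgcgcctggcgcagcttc
CHRNB4: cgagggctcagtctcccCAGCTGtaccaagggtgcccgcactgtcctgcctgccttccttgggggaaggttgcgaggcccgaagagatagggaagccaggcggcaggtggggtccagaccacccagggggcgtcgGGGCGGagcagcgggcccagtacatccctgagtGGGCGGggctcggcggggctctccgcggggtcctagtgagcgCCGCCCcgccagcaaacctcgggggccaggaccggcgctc

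Muscle nicotinic subunits were represented mainly by CHRNE, the adult epsilon subunit of the neuromuscular junction, at 33.9, 27.0, 27.9 and 17.3 CPM in neurons. Its levels were alike in progenitor 1, at 32.6, 23.1, 28.3 and 16.8, and in progenitor 2, at 28.5, 24.4, 22.5 and 16.7. CHRNE is a short gene of 10907 bases, of which 7180 are shared with C17orf107, so its UMIs cannot be given to CHRNE with certainty. CHRNB1 was at 6.49 to 7.20 in neurons and passed a mean of 10 through mesenchymal nuclei, where PP121 replicate 1, with 33 nuclei, was highest. The other 3 muscle subunits, CHRNA1, CHRND and CHRNG, were below 3.1 in every neuron sum. Mean levels in neurons were also scaled to the annotated gene span, which bears on nuclear RNA, and are given for some of the genes, not as a ranking. They were 243 CPM per 100 kb for CHRNE, 88.1 for CHRNA5, 54.0 for CHRNB1, 34.8 for CHRNA4, 34.5 for CHRNA7, 34.3 for CHRNB2, 21.4 for GLRA1, 21.0 for GLRA2 and 9.61 for GABRG3, whose span of 570804 bases is the longest of these.

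Serotonin type 3 receptors were near the limit of detection. HTR3A, without which the other subunits are not known to form a working receptor, had 1 UMI among 116292617. HTR3B, its usual partner, had 4, 12, 4 and 14 UMIs in neurons, HTR3C had 33 in all nuclei and HTR3D 8. HTR3E reached 249 UMIs and 1.60 to 3.43 CPM in neurons, but 8115 of its 9932 bases are shared with the antisense gene HTR3E-AS1. A UMI of any of these 5 genes was present in 0.960% to 1.67% of neurons at 4000 UMIs.

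To ask how the subunits relate to transmitter phenotype without the deposited identities, which rest on imputed values of all genes, neurons were split in each sample by a measured UMI of a transmitter gene and the sums were compared with sample as a block (edgeR quasi-likelihood test, two-sided, Benjamini-Hochberg adjusted over all genes tested). Nuclei with such a UMI were deeper in every split, for example a median of 8685 against 7222 UMIs for SLC17A6 in control replicate 1. Each split was therefore also made after thinning to 2000 UMIs.

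SLC17A6 encodes VGLUT2, the vesicular transporter of glutamatergic neurons, and 160, 198, 296 and 221 neurons held a UMI of it. Of the 23 subunits tested, 5 were higher and 3 lower in these nuclei, against 8.64% of the 17104 genes tested that passed in either direction (5.75% higher and 2.89% lower). GLRA2 was at 115, 71.1, 109 and 99.4 CPM with SLC17A6 and at 58.5, 43.8, 55.8 and 45.6 without, higher in 4 of 4 samples and with no overlap of the 2 sets (log2 fold change 0.99 ± 0.09, SE, adjusted p = 1.58e-05). It passed in each of the 6 alternatives, thinning included (1.14, adjusted p = 7.06e-04). CHRNA7 was also higher in 4 of 4 samples (49.3, 64.0, 83.7 and 74.8 with, 34.8, 45.6, 44.1 and 54.7 without, log2 0.65 ± 0.10, adjusted p = 0.00111). It passed in 5 of 6 alternatives and missed the threshold after thinning (adjusted p = 0.0652). GABRA3 rose by 0.97 ± 0.19 (adjusted p = 0.00620) and missed the threshold after thinning (0.54, adjusted p = 0.700) and without control replicate 2 (0.77, adjusted p = 0.0605). GABRB1 rose by 1.56 ± 0.28 (adjusted p = 0.00284) but was at 46.0 against 10.3 in control replicate 1 and 5.31 against 3.47 in PP121 replicate 1, and without control replicate 1 the adjusted p was 0.0736.

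The genes that fell with SLC17A6 included CHRNA3 and CHRNA5 of the chromosome 15 cluster, whereas CHRNB4 did not pass (log2 -0.20 ± 0.34, adjusted p = 0.804). CHRNA3 was at 0.657, 3.74, 3.65 and 4.18 CPM with and at 6.54, 8.38, 7.67 and 11.01 without SLC17A6 (log2 -1.34 ± 0.28, adjusted p = 0.00961), and CHRNA5 at 11.2, 12.6, 16.6 and 20.0 with and 18.4, 36.2, 21.9 and 39.9 without (-0.85 ± 0.17, adjusted p = 0.00647). Both were lower in 4 of 4 samples, but the counts behind CHRNA3 with SLC17A6 were 1, 8, 11 and 10 UMIs. CHRNA5 passed in 5 of 6 alternatives. GLRA1 fell by 0.72 on the log2 scale (SE 0.17, adjusted p = 0.0172), opposite to GLRA2, but passed in 2 of 6 alternatives and missed the threshold without control replicate 1 (adjusted p = 0.0561), PP121 replicate 1 (0.0708) or PP121 replicate 2 (0.0820). After thinning, 11 subunits were tested and 2 passed, GLRA2 among them, against 426 of 11362 genes.

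GAD2, which makes GABA, marked 937, 275, 695 and 139 neurons. In these, 1 of the 26 subunits tested was higher and 3 were lower, against 6.12% of 19024 genes (3.56% higher and 2.57% lower). GABRG3 was at 93.7, 42.8, 108 and 131 CPM with GAD2 and at 48.0, 26.1, 34.6 and 39.3 without, higher in 4 of 4 samples (log2 1.33 ± 0.14, adjusted p = 5.88e-05), and it passed in each of the 6 alternatives. CHRNA7 was at 34.7, 41.4, 34.0 and 30.1 with and 37.1, 52.0, 62.5 and 66.4 without (-0.51 ± 0.14, adjusted p = 0.0469). GABRA2 (-0.80 ± 0.17, adjusted p = 0.0150) and GABRB1 (-0.86 ± 0.22, adjusted p = 0.0376) were also lower. CHRNA7, GABRA2 and GABRB1 all missed the threshold with DESeq2 (adjusted p 0.0563, 0.0708 and 0.288), and each also failed when control replicate 2 or PP121 replicate 1 was left out. In all, CHRNA7 and GABRA2 each passed in 1 of 6 alternatives and GABRB1 in 1 of 5.

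For CHAT, the acetylcholine synthase, 1 of 22 subunits passed against 2.70% of 17684 genes. It was GABRB2, at 36.1, 42.9, 44.6 and 39.8 with CHAT and 24.0, 16.8, 21.6 and 20.9 without, again without overlap (log2 1.01 ± 0.15, adjusted p = 0.00258), although the thinned value missed the threshold (0.62, adjusted p = 0.917). For NOS1, the nitric oxide synthase of inhibitory motor neurons, 1 of 23 passed against 0.404% of 17084 genes. GABRB1 was at 46.1, 21.8, 13.7 and 39.1 with NOS1 and at 12.2, 3.62, 3.54 and 4.11 without (log2 2.34 ± 0.39, adjusted p = 0.00175), resting on 25, 7, 6 and 9 UMIs in 52, 30, 42 and 20 nuclei, and passed in 5 of 6 alternatives. For TH, of catecholamine synthesis, 0 of 23 passed with edgeR and 0 with DESeq2, with 5 at an unadjusted p under 0.05 in edgeR, against 0.425% of 17159 genes. The closest was GLRA2 (log2 0.44 ± 0.11, adjusted p = 0.101). DESeq2 gave 13 of the 23 no adjusted p, and called 85 genes in all.

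**Figure D3:**
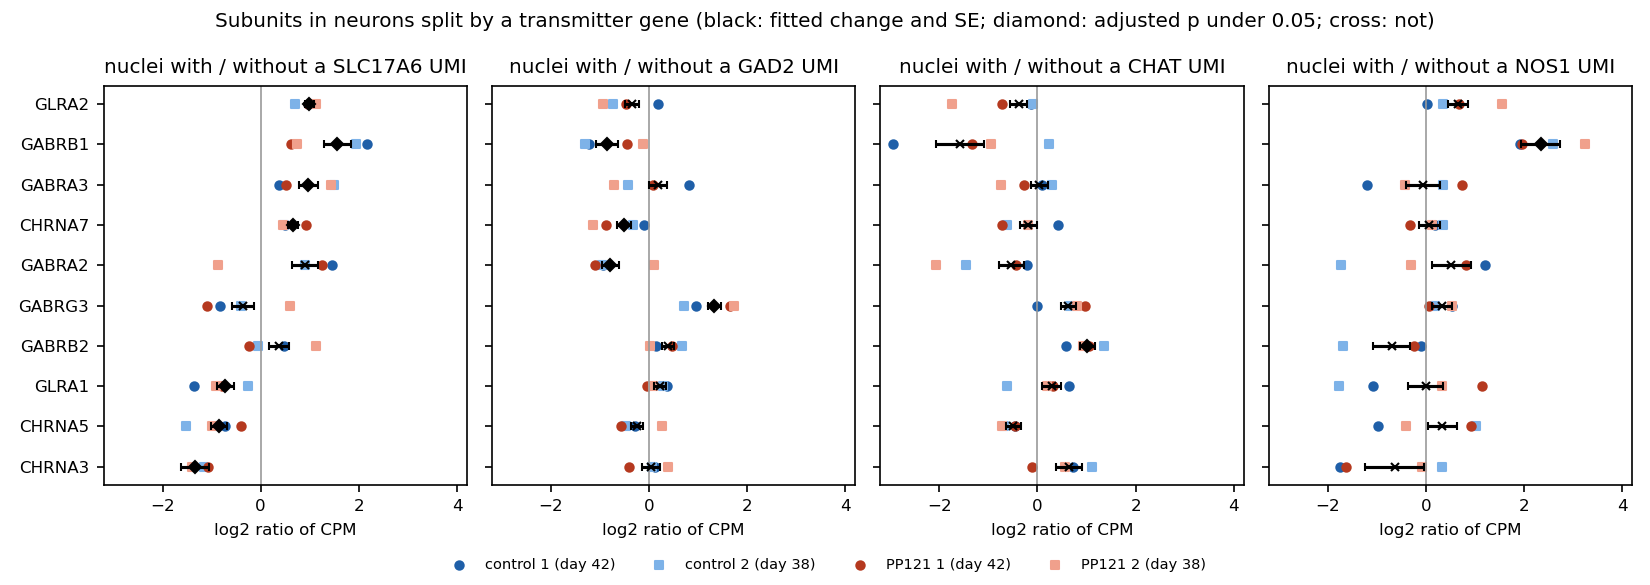
Log2 ratio of CPM in neurons with a UMI of SLC17A6, GAD2, CHAT or NOS1 over neurons without, for 10 subunit genes that passed in a split or stood next to those that did. Coloured points are the 4 samples (a ratio with 0 UMIs in either set, or too few, is not drawn), and black symbols are the fitted change with its SE, a diamond where the adjusted p was under 0.05. GLRA2 with SLC17A6, GABRG3 with GAD2, GABRB2 with CHAT and GABRB1 with NOS1 are above 0 in 4 of 4 samples.

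Genes that make and move GABA and glycine moved strongly across the same splits. Of 9 such genes, 0 rose and 5 fell with SLC17A6, and with GAD2 5 of the 8 tested rose and 0 fell. Of all genes tested, 5.75% rose and 2.89% fell with SLC17A6, and 3.56% rose and 2.57% fell with GAD2. SLC6A5, the neuronal glycine transporter, was at 610, 846, 948 and 914 CPM in neurons with GAD2 and at 255, 143, 254 and 106 in those without. With CHAT, 6 of 9 rose, SLC6A5 (1.65), GAD2 (1.28) and SLC32A1 (1.47, log2) among them, and with NOS1 and with TH 0 of 9 passed. Of 10 receptor anchors and auxiliary proteins, gephyrin among them, 2 rose and 1 fell with SLC17A6. Gephyrin itself was at 1350 to 1552 in neurons and 769.9 to 1268 in progenitor 1. SLC12A5, the chloride exporter that makes GABA inhibitory in mature neurons, was at 9.02 to 12.6 and the importer SLC12A2 at 78.5 to 88.5 in neurons.

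In the deposited identities, which may overlap and are described without a test, GABRG3 was at 121, 68.0, 125 and 152 CPM in GABAergic neurons and at 18.7, 16.6, 31.0 and 36.7 in glutamatergic neurons. It was also above the remaining neurons in nitrergic (151, 53.8, 166 and 207), serotonergic (153, 69.0, 85.5 and 113) and cholinergic neurons (77.3, 52.2, 102 and 176) in 4 of 4 samples. GABRB1 was at 40.6, 15.7, 11.3 and 11.6 in nitrergic neurons, 2.65- to 9.36-fold above the rest. GABRB2 was 2.14- to 3.66-fold above the rest in cholinergic neurons. In glutamatergic neurons GLRA2 was at 47.3, 35.3, 69.0 and 52.4, below the rest in 3 of 4 samples, unlike in the SLC17A6 split. It was highest in nitrergic neurons of 3 samples (90.1, 86.3, 113 and 131). Likewise CHRNA5 was above the rest in glutamatergic neurons in 4 of 4 samples (25.7, 36.4, 27.5 and 35.1), the reverse of its direction in the SLC17A6 split. The glutamatergic label does not stand for that split, as SLC17A6 was only 1.17- to 2.08-fold above the rest there (27.1, 45.3, 63.4 and 62.9). SLC17A6 was higher in nitrergic (36.0, 49.8, 69.9 and 94.0) and catecholaminergic neurons (58.7, 71.9, 73.5 and 81.2) of each sample. In these 2 identities GLRA2 was above the rest in 4 and 3 samples, and CHRNA5 in 0 and 1.

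Neuronal subtypes, named separately by the authors for control and PP121 samples and so not comparable across treatments, differed much in GABRG3. It varied 23.3- to 53.3-fold between the lowest and the highest subtype within a sample, with its highest level in subtype EN 5 of both control samples (266 and 174 CPM) and in EN E of both PP121 samples (256 and 532). GLRA2 reached 123 in EN 4 of control replicate 1 and 114 in EN 8 of control replicate 2, and was highest in EN H of both PP121 samples (133 and 107).

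The effect of PP121 was compared in neurons and in each progenitor class. Without a term for replicate, 0 of the 31 subunits tested passed in neurons with edgeR and 0 with DESeq2, and 1 had an unadjusted p under 0.05 in edgeR, among 0 of 21243 genes that passed in all with edgeR. With DESeq2, 12 of the 31 had no adjusted p, and 87 genes passed in all. Here and in the progenitors, p-values measure the spread of 2 against 2 samples, for which an exact two-sided permutation test of 1 value could not go below 0.33. With replicate number as a block, a fit with 1 degree of freedom left over, 4 of 31 subunits passed in PP121 neurons against 14.8% of all genes tested, 1 of them higher (7.97% of genes) and 3 lower (6.86%). The median log2 fold change of the 31 was 0.10, against -0.0055 for all genes.

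In that paired comparison CHRNE fell from 33.9 to 27.9 CPM in replicate 1 and from 27.0 to 17.3 in replicate 2, ratios of 0.821 and 0.640 (log2 -0.40 ± 0.13, adjusted p = 0.0437) and CHRNA7 rose with ratios of 1.42 and 1.22 (0.44 ± 0.11, adjusted p = 0.00806). CHRFAM7A, which shares sequence with CHRNA7, rose as well (1.298 ± 0.25, adjusted p = 7.36e-04). GABRB1 was called lower (-0.95 ± 0.30, adjusted p = 0.0321), but its ratios were 0.289 and 1.21, so that the 2 replicates disagreed in direction. GLRA2 did not pass, with ratios of 1.03 and 1.23 (0.20 ± 0.11, adjusted p = 0.237). DESeq2 with the same block called 0 of the 31, with 2 at an unadjusted p under 0.05 and 19 without an adjusted p, against 633 genes called in all. Without control replicate 1, the unpaired log2 fold changes were 0.19 for CHRNA7, -0.24 for CHRNE and 0.083 for GABRB1.

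Among related genes in the same paired comparison, 0 of 9 GABA and glycine synthesis and transport genes rose and 2 fell, GAD2 (-0.42 ± 0.12, adjusted p = 0.0205) and SLC32A1 (-0.64 ± 0.19, adjusted p = 0.0260). Of all genes tested there, 7.97% rose and 6.86% fell. Of 10 anchors and auxiliary proteins 2 fell, GABARAP (-0.58 ± 0.13), which carries GABA-A receptors through the cell, among them. Of 8 nicotinic chaperones and modulators tested, CHRFAM7A and LYPD6 rose and 0 fell. Of 4 acetylcholine genes CHAT fell, of 5 serotonin genes TPH2 fell, and 0 of 2 chloride cotransporters and 0 of 2 GABA-B subunits passed. Of 13 mesenchymal markers 4 rose in PP121 neurons, PRRX1 from 0.317 to 0.772 and from 1.35 to 4.68 CPM among them, and their part in the subunit differences was not tested.

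In the progenitors, 0 of 20 subunits passed in progenitor 1 and 0 of 25 in progenitor 2 without the block with edgeR, and 0 with DESeq2, among 0 genes in all with edgeR, with 1 and 5 subunits at an unadjusted p under 0.05. With the block, 1 of 20 passed in progenitor 1, against 3.69% of 16083 genes, and 0 of 22 when nuclei of the 4 samples were clustered together and assigned to classes afresh. Over all genes, 259 of 17406 passed with these fresh classes. In progenitor 2, GABRG3 rose from 13.2 to 17.9 and from 13.9 to 25.02 CPM (0.66 ± 0.20, adjusted p = 0.0255) and GABRR3 fell (-3.00 ± 0.68, adjusted p = 0.00173), 2 of 25 against 6.71% of 18885 genes. GABRR3 rested on 29, 13, 5 and 0 UMIs, the control UMIs coming from 7 and 3 nuclei, and missed the threshold with the fresh classes (-0.71, adjusted p = 0.475). GABRG3 kept its call there (0.88, adjusted p = 0.00962) but missed the threshold when at least 10 counts in every sample were required (0.66, adjusted p = 0.0927). GLRA2 did not pass in progenitor 2, with ratios of 1.19 and 1.56 (0.47 ± 0.15, adjusted p = 0.0511), nor in progenitor 1, with 1.49 and 1.56 (0.58 ± 0.35, adjusted p = 0.532), where its log2 fold change was -0.31 with the fresh classes. DESeq2 with the block called 0 subunits in progenitor 1 and 0 in progenitor 2, with 1 in each at an unadjusted p under 0.05. There 16 of 20 and 16 of 25 subunits had no adjusted p, so most could not pass, and 73 and 219 genes passed in all. Without the block, DESeq2 gave 11 of 25 subunits in progenitor 2 no adjusted p. It then called 1 gene in all in progenitor 1 and 96 in progenitor 2.

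Replicate 1 (day 42) was compared with replicate 2 (day 38) with treatment as a term. In neurons 3 subunits were higher and 4 lower in replicate 1, 7 of 31 against 9.49% of 21243 genes (3.68% higher and 5.81% lower). GABRG3 was higher by 0.64 ± 0.15 (log2, adjusted p = 0.00431) and CHRNE by 0.44 ± 0.14 (adjusted p = 0.0387). For GABRG3 the ratio of replicate 1 to 2 was 2.28 in control but 1.16 in PP121, and for CHRNE 1.26 and 1.62. Each of the 2 passed in 2 of 5 alternatives. CHRNA5 fell by 0.84 on the log2 scale (SE 0.13, adjusted p = 6.28e-05), with 17.8 and 20.9 CPM on day 42 and 31.7 and 34.5 on day 38, so that the days did not overlap. CHRNB4 of the same cluster was lower too (-0.93 ± 0.24, adjusted p = 0.0129), as were CHRNA7 (-0.40 ± 0.11, adjusted p = 0.0218) and HTR3B (-2.57 ± 0.57, adjusted p = 0.00323, from 4 and 4 against 12 and 14 UMIs). CHRNB4 passed in 2 of 5 alternatives, CHRNA7 in 3 of 5 and HTR3B in 2 of 3. CHRNA3, which lies between CHRNA5 and CHRNB4, did not pass, with ratios of replicate 1 to 2 of 0.811 in control and 0.761 in PP121. CHRNA5 was the single subunit lower in progenitor 1 (-1.20 ± 0.26, adjusted p = 1.40e-04), 1 of 20 against 14.6% of genes, and in progenitor 2 (-0.66 ± 0.19, adjusted p = 0.0270), 1 of 25 against 4.81%. With DESeq2 it was the only subunit that passed in neurons (adjusted p = 0.0122), and 0 passed in either progenitor class, with 1 and 0 at an unadjusted p under 0.05. DESeq2 gave no adjusted p to 11 of 31 subunits in neurons, 17 of 20 in progenitor 1 and 12 of 25 in progenitor 2. Over all genes it called 453, 652 and 150 in these classes.

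**Figure D4:**
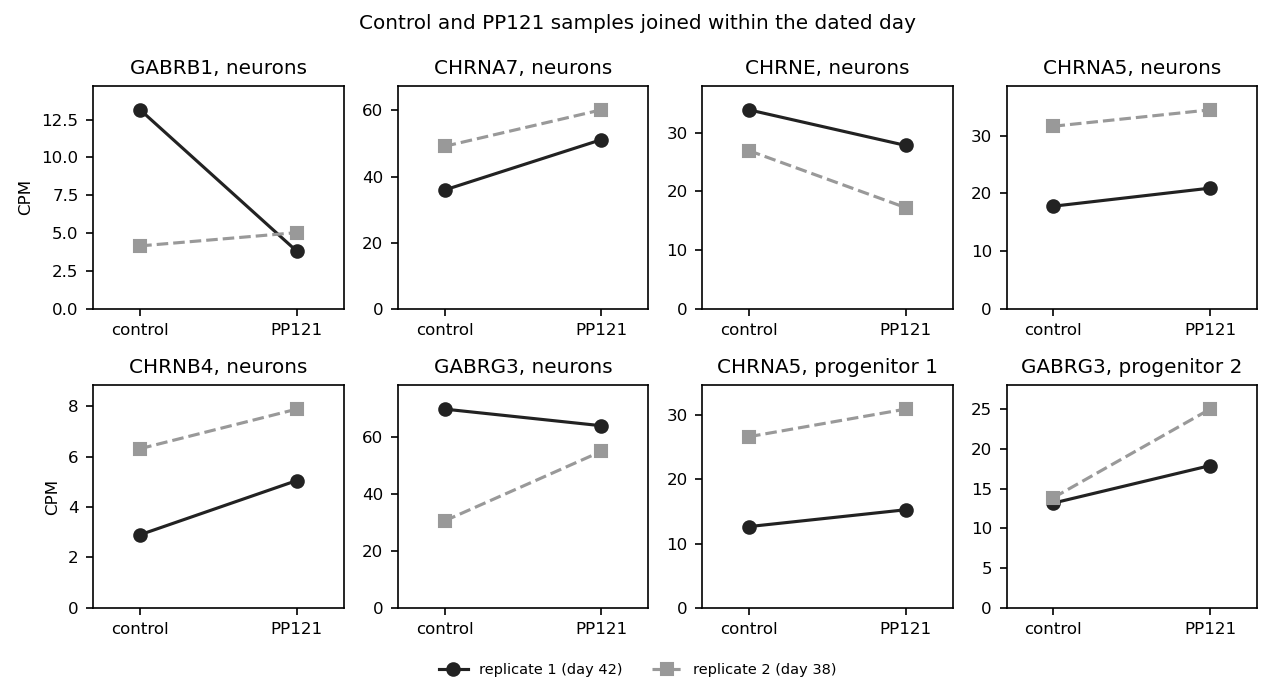
CPM of subunits in control and PP121 samples, joined within replicate 1 (solid line, circles, day 42) and replicate 2 (dashed line, squares, day 38), with axes from 0 that differ between panels. CHRNA5 is higher in replicate 2 in neurons and in progenitor 1, CHRNE falls with PP121 along both lines in neurons, and the lines of GABRB1 cross.

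Genes of other groups also moved with the day. Of all genes tested in neurons, 3.68% were higher in replicate 1 and 5.81% lower. In neurons 5 of 9 GABA and glycine synthesis and transport genes were higher in replicate 1 and 0 lower, GAD2 by 1.25 ± 0.13 and SLC6A5 by 0.68 ± 0.11 among them, and of 8 nicotinic chaperones and modulators 1 was higher and 4 lower, CHRFAM7A by -1.46 ± 0.25 among these. Acetylcholine genes gave 1 higher and 1 lower of 4, and 0 of 10 anchors passed. Of 13 mesenchymal markers 6 were lower in replicate 1 neurons, COL3A1 at 4.12 and 2.55 against 17.95 and 16.2 CPM, and the whole list summed to 152 and 164 against 199.7 and 230.0, with 4873 to 5514 in mesenchymal nuclei. CHRNA5 itself was at 2.80, 6.08, 16.8 and 6.34 in mesenchymal nuclei, below its level in the neurons of each sample. The part of mesenchymal RNA, of transmitter makeup and of the differentiation batch in these day differences was not tested.

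Whether PP121 acted differently in neurons and in progenitors was tested as an interaction over the 2 progenitor classes together. Of the 32 subunits tested 0 passed with edgeR, with 0 at an unadjusted p under 0.05 and 0 of 21787 genes past the threshold. With replicate as a block within each class 0 of 32 passed again, with 2 at an unadjusted p under 0.05, against 1.65% of genes, so that a difference between the classes in any single subunit was not shown.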

How the data were processed

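The authors deposited counts, whole numbers of UMIs per gene and nucleus from 10x Genomics 3' v3.1 libraries, with a table of class, day and transmitter identity per nucleus made in Seurat. The study's methods name kallisto and bustools, whereas the submitters' processing notes name Cell Ranger, Seurat 4.0.4 and GRCh38, and which made the tables is not given in the sources used here. The deposited percent values (mitochondrial and ribosomal share of UMIs per nucleus) served the authors' filters and were not used. The authors removed low-quality nuclei (Filtered in the annotation), and no doublet caller was run. A separate clustering of all samples together (Scanpy 1.11.5) gave alternative classes, and 2 alternatives dropped nuclei above the 95th percentile of UMIs.

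Counts were summed per class and sample and tested with edgeR 4.0.16 (TMM, filterByExpr, quasi-likelihood test, Benjamini-Hochberg over all genes tested) in R 4.3.3. DESeq2 1.42.0, other filters, thinning to 2000 UMIs and leaving out each sample were alternatives, and those combining a filter or a UMI limit with the replicate block were added after seeing the data. Replicate numbers mark a shared day in the annotation, and deviations of same-numbered samples correlated (Pearson r across genes 0.421 in neurons, 0.435 in progenitor 1, 0.275 in progenitor 2). For PP121 the main fit had no term for replicate, and the paired fit with replicate as a block was an alternative. Members with a mean of 10 CPM in a class, or past an adjusted p of 0.05 in a test, were named, except that a few members and list genes are not reported here by name, although counts include them. Members, gene lists and tests were chosen with earlier results of these data known. In simulated counts for PP121 in neurons, 71% of genes changed 2-fold and 98% of those changed 4-fold were found without a day effect. With the day effect of these data simulated, 63% and 97% were found with the block and 3% and 66% without it. The changed genes were drawn only from those above a minimum mean count, with the same dispersion for every gene. These shares therefore do not carry over to subunits with few UMIs. Promoter windows were listed for 31 of the 45 members.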

Additional observations from a re-analysis of the deposited data

Results flagged for a closer look

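A single result is given here because PP121 and control samples were ordered oppositely in 2 classes. GABRR2, a rho subunit, was at 5.33 and 5.50 CPM in control and at 6.95 and 5.71 in PP121 neurons, and at 9.07 and 7.99 in control and 7.43 and 7.77 in PP121 progenitors. The PP121 effect in neurons minus that in progenitors was 0.47 on the log2 scale (SE 0.29, edgeR quasi-likelihood test, adjusted p = 0.637, and 0.553 with replicate as a block), so the difference did not pass its test.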

How the results depend on the processing

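Counts below are of subunits past an adjusted p of 0.05. For PP121 in neurons the count was 0 without the block and 4 with it. With the block it was 2 after joint clustering, 1 without nuclei of high UMI count, 6 without a filter and 2 with at least 10 counts in every sample. Over all genes these settings called 1061 of 21006, 1813 of 20592, 3320 of 31648 and 2769 of 18724. In progenitor 1 the paired count was 1, as it was without nuclei of high UMI count, without a filter and at 10 counts, and 0 after joint clustering. The alternatives called 549 of 15857, 514 of 28981, 523 of 13806 and 259 of 17406 genes in that order. In progenitor 2 the subunit count was 2 with the block, 3 after joint clustering with the block, 1 without nuclei of high UMI count, 2 without a filter, 0 at 10 counts, and 1 without a filter and without the block. After the first, these settings called 954 of 19312, 880 of 18526, 1286 of 30302, 632 of 16840 and 768 of 30302 genes. The block changed no other call. For the day in neurons the count of 7 became 0 without the treatment term, 1 with DESeq2 and 4 after joint clustering. In progenitor 1 it became 0, 0 and, at 10 counts, 2. In progenitor 2 it became 0 without the term, 0 with DESeq2, 0 at 10 counts and 2 after joint clustering. Without the term, 0 genes passed in any class. In neurons, DESeq2 called 453 of 21243 genes and joint clustering 1017 of 21006. In progenitor 1, DESeq2 called 652 of 16083 and 10 counts gave 2167 of 13806. In progenitor 2 the gene counts were 150 of 18885 with DESeq2, 390 of 16840 at 10 counts and 769 of 19312 after joint clustering. After thinning to 2000 UMIs, 0 subunits passed for NOS1, 0 for CHAT, 2 for SLC17A6 and 1 for GAD2, with 10 to 14 subunits tested, and DESeq2 called 1 for GAD2. The thinned splits called 9 of 10731, 82 of 11336, 426 of 11362 and 312 of 12624 genes, and DESeq2 760 of 19024 for GAD2. Leaving out 1 sample gave 0 to 2 for PP121 in neurons and 0 to 4 in progenitor 2, both highest without PP121 replicate 1, and 1 to 2 for CHAT, 1 to 3 for GAD2 and 6 to 8 for SLC17A6.

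Direction was followed for the named calls and for GLRA2 and GABRG3 with PP121 in neurons, and turned in 2 genes. GABRB1 in PP121 neurons ranged from -1.51 to 0.083 (log2), above 0 without control replicate 1, and GABRG3 from -0.16 without control replicate 2 to 0.97. GLRA2 with PP121 in progenitor 1, not in that set, also turned with the fresh classes, as given above. The cause was not tested for any of these. Depth limited the 15 subunits with fewer than 100 UMIs, of which HTR3B was called.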
